A study of Mus musculus with 308 samples.

Results

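This section describes the mesenteric lymph nodes of mice dosed with monoethyl fumarate (MEF) salts, set against those of mice given vehicle. The members are the 7 mesenteric node arrays whose titles name MEF at 79.2 mg/kg without dimethyl fumarate (called MEF79.2) and the 8 whose titles name vehicle (called VEH), which is 15 of the 44 mesenteric node arrays of a series that also covers other tissues. All 28898 probe sets that carry 1 gene symbol, of 45141 in the table, were considered, and 10671 genes were tested. MEF79.2 mice received a mixture of the calcium, magnesium and zinc salts of MEF. A direct comparison used 8 mesenteric node arrays of mice given dimethyl fumarate (DMF) at 100 mg/kg (DMF100), and a comparison between nodes used 6 MEF79.2 and 8 VEH arrays of the inguinal lymph node. VEH mice received 0.8% hydroxypropyl methylcellulose. The estimate of the spread also drew on the remaining mesenteric node arrays: 8 from a DMF dose of 179.2 mg/kg, 6 from the lower DMF dose combined with the salt mixture, and 7 from a group named Nav, a name that the labels used here do not explain. The MEF79.2, DMF100 and VEH animals were C57BL/6 mice dosed once a day for 10 days and killed 12 h after the final administration. The labels give no age or sex, do not say whether each array is 1 animal, and treat the 3 salts as 1 mixture, so the metals and the ester cannot be told apart.

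The mesenteric nodes drain the gut, which is where an oral fumarate is absorbed. Fumaric acid esters are electrophiles that react with cysteines. Modification of the sensor KEAP1 releases the transcription factor NRF2, which drives genes of detoxification and glutathione metabolism, Nqo1 being its usual readout. DMF is a diester and MEF a monoester, which reacts more slowly with thiols. Damaged or modified proteins raise chaperones through heat shock factor 1, and monoesters also activate the receptor encoded by Hcar2 on myeloid cells and fat cells.

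The nodes carried the markers of their label: 19 of 20 B cell markers and 23 of 23 T cell markers on the array passed the filter on low values. Of 15 neutrophil markers, 3 passed it, and Elane, Mmp8 and Mpo lay at the lowest value of the table on all 15 arrays. Markers of the pancreas, an organ that lies against this node, set 2 arrays apart. Over 26 pancreatic marker genes, the mean log2 signal was 9.40 on MEF79.2 array 30 and 9.68 on VEH array 3, against 3.32 to 3.44 on the other 13 arrays. Each group thus held 1 such array, and the DMF100 group held none. The mean of 18 adipocyte markers ran from 8.21 to 8.58 on MEF79.2 arrays and from 7.86 to 9.04 on VEH arrays, where arrays 2, 4 and 7 were at 8.64, 9.04 and 9.01. The 18 hybridisation control probe sets, which measure RNA added by the laboratory, averaged 11.76 ± 0.03 on MEF79.2 arrays and 11.71 ± 0.04 on VEH arrays (SD, n = 7 and 8), a difference of 0.05 (exact permutation test, two-sided, p = 0.0236, adjusted over 2 measures 0.0472). The difference between 3′ and 5′ control probe sets, a sign of RNA quality, was 1.23 ± 0.12 on MEF79.2 arrays and 1.22 ± 0.20 on VEH arrays (exact permutation p = 0.943).

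**Figure D1:**
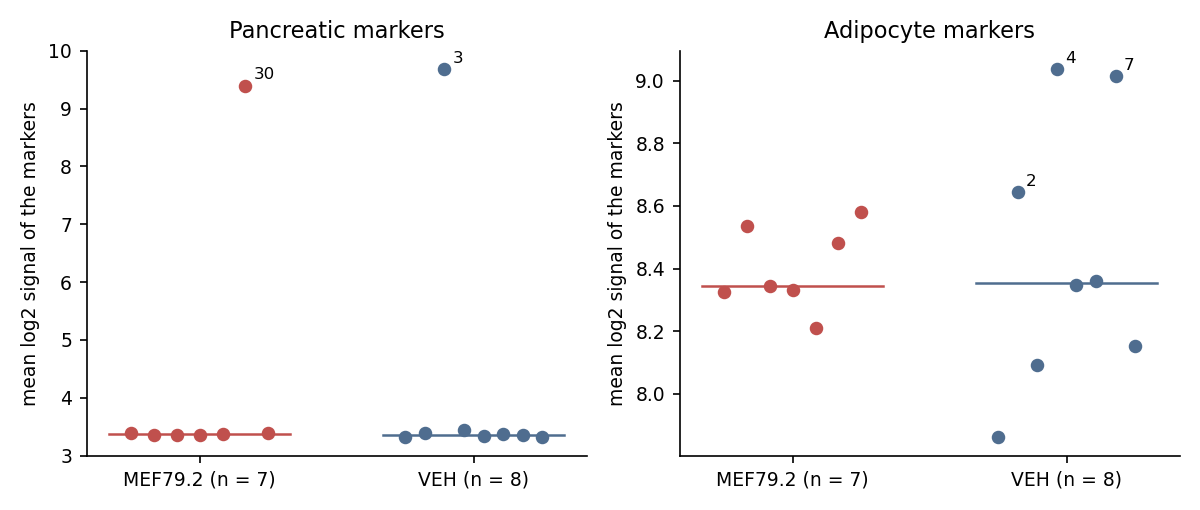
Mean log2 signal of 26 pancreatic markers (left) and 18 adipocyte markers (right) on each MEF79.2 and VEH array of the mesenteric node. Points are arrays, lines are group medians, and numbers name arrays that stand apart. MEF79.2 array 30 and VEH array 3 lie above 9 for pancreatic markers, and VEH arrays 2, 4 and 7 have the highest adipocyte levels.

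MEF salts shifted few transcripts by much. With limma's moderated test over all 10671 genes and Benjamini-Hochberg adjustment, 507 genes (4.75%) had an adjusted p under 0.05. Of these, 159 (1.49% of the genes tested) were higher in MEF79.2 nodes and 348 (3.26%) were lower. Their median absolute log2 fold change was 0.28, a 1.22-fold difference, and 5 of them reached 1.5-fold. The split depended on scaling: with a renewed quantile normalization, 243 genes were higher and 317 lower. In bulk tissue, fewer cells of a type and less RNA per cell cannot be told apart.

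That count rested on single arrays and on the groups that share the estimate of the spread. Fitted on the MEF79.2 and VEH arrays alone, the comparison gave 44 calls, and with probe sets averaged per gene it gave 190. Leaving out MEF79.2 array 30 left 18 calls, and leaving out array 26, 28 or 31 left 213, 300 or 165, while 834 were made without array 27. Leaving out VEH array 2, 4 or 7 left 115, 227 or 105. Without VEH array 3 there were 482 calls, and without both arrays with pancreatic signal there were 9. With the pancreatic marker mean as a covariate over all arrays, 579 genes were called. With the hybridisation control mean as a covariate, 76 were. All 18 genes called without array 30 were also called with any other array of the 2 groups left out, and the text turns to these first.

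**Figure D2:**
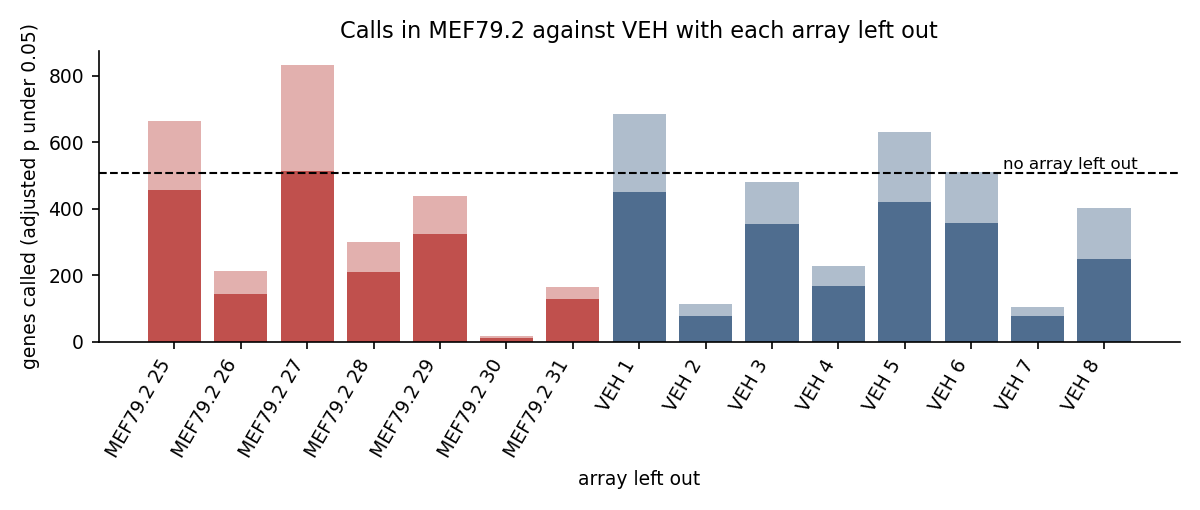
Number of genes called (adjusted p under 0.05, vertical axis) in MEF79.2 against VEH with each array left out in turn (horizontal axis). The dark part of a bar counts genes lower in MEF79.2 nodes and the pale part genes higher, and the dashed line marks 507 calls with no array left out. The bar for MEF79.2 array 30 stands at 18.

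Of those 18 genes, 11 were lower and 7 were higher in MEF79.2 nodes. The groups did not overlap in 14 of them, against 83 of all 10671 genes tested (0.778%). The 18 were chosen by their calls, so these counts describe them and test nothing. All 18 were among the 76 genes that stayed below an adjusted p of 0.05 with the hybridisation control covariate. With pancreatic and adipocyte marker levels as covariates all 507 did, so that setting does not set the 18 apart. In a fit of the 2 groups alone 15 of the 18 were called, without Atat1, Fam149b and Slc35e1. With probe sets averaged per gene, 8 of the 16 that could be tested were called. Without arrays 30 and 3 together, 8 of the 18 were called, and the highest adjusted p among the rest was 0.0612. Of the 18, 13 had another tested probe set: in 2 of these, C1d and Rnf14, another probe set was called in the same direction, and in 4 the other probe set had the opposite sign. Only Clca3a1, Fgd4, Araf, Dse and Atat1 of the 18 fall under the rule for naming genes, and the other 13 were named after their values were seen.

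The lower genes were led by Clca3a1, a member of the family of calcium-activated chloride channel regulators and a marker of mouse lymphatic endothelium. Its log2 signal had a lowest, median and highest value of 6.33, 6.78 and 6.92 in MEF79.2 nodes, against 7.07, 7.61 and 8.08 in VEH nodes. Every MEF79.2 array lay below every VEH array. The log2 fold change was −0.94 ± 0.18 (SE), 1.92-fold lower (95% interval −1.30 to −0.58, limma adjusted p = 0.00946), and it was −0.95 without array 30. A further probe set of Clca3a1 gave −0.49 and was not called. Clca3a1 has close paralogs in mouse, and probe sets may not separate them. Clca3a1 was the only call among 17 tested lymphatic endothelial markers, beside 4.75% of all genes called. The median log2 fold change of these markers was −0.09, beside 0.00 over all genes.

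Fgd4, an exchange factor that activates the small GTPase Cdc42, ranged from 5.96 to 6.70 in MEF79.2 nodes and from 6.70 to 7.35 in VEH nodes. The groups met without overlapping, and the log2 fold change was −0.70 ± 0.12 (limma adjusted p = 0.0064). Dse, the epimerase that makes dermatan sulfate from chondroitin sulfate, had log2 values of 8.83 to 9.40 in MEF79.2 nodes and 9.56 to 10.01 in VEH nodes. The log2 fold change of Dse was −0.57 ± 0.10 (limma adjusted p = 0.0064), and array 30 was its lowest MEF79.2 array. Gng2, a gamma subunit of heterotrimeric G proteins, lay between 10.78 and 11.07 in MEF79.2 nodes and between 11.17 and 11.45 in VEH nodes. Its log2 fold change was −0.36 ± 0.06 (limma adjusted p = 0.0064), although of 3 further probe sets 1 had the opposite sign. C1d, a cofactor of the nuclear RNA exosome, was lower by a log2 fold change of −0.47 ± 0.09, and its second probe set gave −0.44.

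Araf, a kinase of the RAF family, shows how far the choice of probe set matters. On the probe set used here it was 6.78 to 7.41 in MEF79.2 nodes and 7.49 to 8.07 in VEH nodes, a log2 fold change of −0.61 ± 0.12 (limma adjusted p = 0.00946). The probe set with the highest mean in the mesenteric node gave 0.07 (adjusted p = 0.642), so the direction for Araf turned with the probe set. The remaining 5 lower genes had log2 fold changes between −0.42 and −0.25. They were Ap4e1 (−0.42), a subunit of the AP-4 vesicle adaptor, Slc25a24 (−0.42), a mitochondrial carrier of ATP-magnesium and phosphate, Plekhg1 (−0.33), Rnf14 (−0.26), a ubiquitin ligase, and Pcgf5 (−0.25), a polycomb protein. Plekhg1 and Pcgf5 each had a second probe set of the opposite sign. Ap4e1, like Araf, was not called on its probe set with the highest mean in the mesenteric node.

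Of the 7 higher genes, Atat1 and Prmt5 differed most. Atat1, the acetyltransferase of alpha-tubulin, had a lowest, median and highest log2 value of 7.39, 7.62 and 7.98 in MEF79.2 nodes, against 6.90, 7.16 and 7.47 in VEH nodes. Of the 7 MEF79.2 arrays, 5 lay above all VEH arrays, and the log2 fold change was 0.46 ± 0.09 (limma adjusted p = 0.01). Prmt5, which methylates arginines of histones and splicing proteins, was 8.40 to 8.68 in MEF79.2 nodes and 7.99 to 8.37 in VEH nodes. The groups did not overlap for Prmt5, with a log2 fold change of 0.32 ± 0.06 (limma adjusted p = 0.00946). Gapvd1, an endocytic regulator of Rab5, differed by 0.30 and Wrap73, a centrosomal protein, by 0.28. Fam149b differed by 0.26, Slc35e1, a membrane transporter, by 0.23, and Sec24b, a cargo subunit of the COPII coat, by 0.19. In these 5 the adjusted p lay between 0.01 and 0.0175. With probe sets averaged per gene, Prmt5 and Wrap73 stayed called, while Fam149b, Gapvd1, Sec24b and Slc35e1 did not. Atat1 was not tested in that setting, and its second tested probe set gave 0.10 and was not called.

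**Figure D3:**
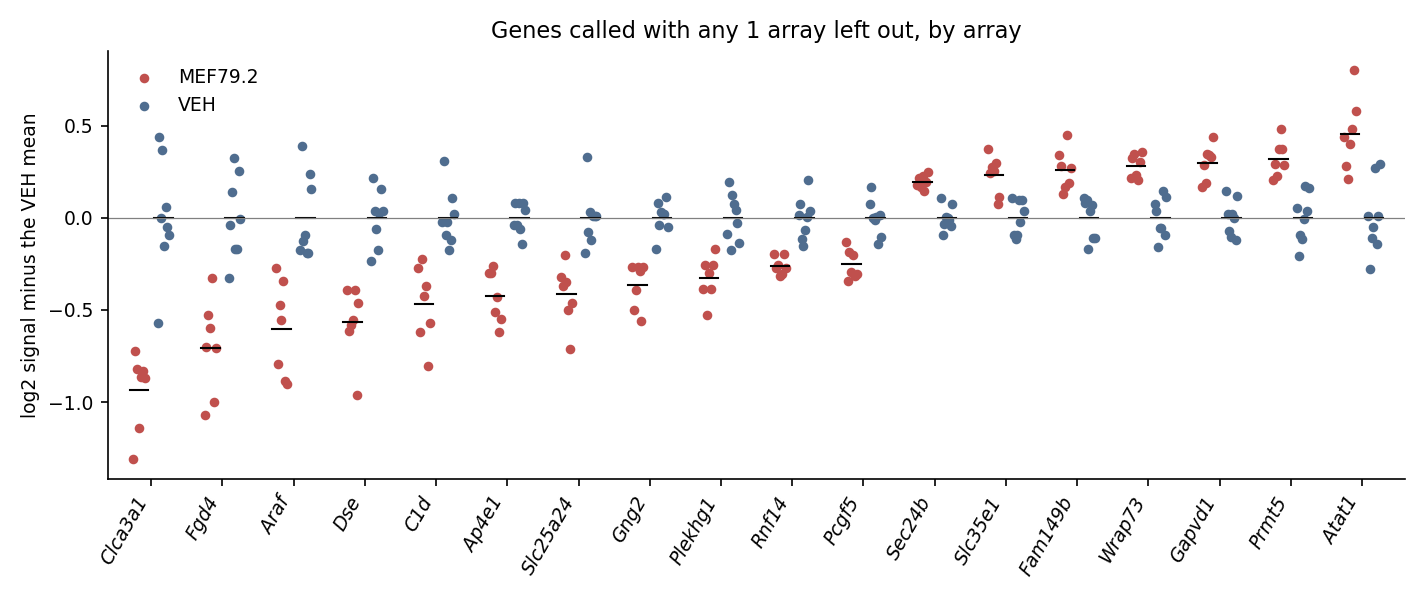
Log2 signal minus the VEH mean (vertical axis) of the 18 genes called with any 1 array left out, for MEF79.2 arrays (left of each pair) and VEH arrays (right). Points are arrays and bars are group means. The 11 genes on the left are lower in MEF79.2 nodes and the 7 on the right higher, and Clca3a1 shows the widest gap.

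The other genes with the largest differences were not called without array 30, and most had overlapping groups. Nudt12, a hydrolase of NADH, had the largest fall of the 507, with a lowest, median and highest log2 value of 5.29, 5.76 and 6.13 in MEF79.2 nodes against 5.63, 6.57 and 7.83 in VEH nodes. Its log2 fold change was −0.99 ± 0.31 (limma adjusted p = 0.0498). The 3 highest VEH arrays for Nudt12, at 7.83, 7.50 and 7.14, were arrays 7, 4 and 2, which were also the 3 with the highest adipocyte marker mean. With the pancreatic and adipocyte marker means as covariates, the log2 fold change of Nudt12 was −0.94 (limma adjusted p = 0.00232). It was called in 4 of the 15 leave-one-out settings. Ndn (necdin), at a log2 fold change of −0.57 ± 0.15, was also highest in VEH on arrays 4, 2 and 7. With the same covariates, Ndn had −0.55 (limma adjusted p = 0.00626).

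Abi1, a subunit of the WAVE complex that nucleates actin, was lower by −0.58 ± 0.13 with no overlap between groups, and it was called in 14 of the 15 settings that leave out 1 array. Piwil4 (−0.55), 0610040B10Rik (−0.55), Atad5 (−0.55), which unloads the replication clamp, Klhl13 (−0.54), an adaptor of a cullin ubiquitin ligase, and Tspyl1 (−0.53) made up the rest of the 12 largest falls. Among the 12 largest rises, Defb1, a beta-defensin, had log2 values of 5.32 to 6.06 in MEF79.2 nodes and 4.02 to 5.35 in VEH nodes. Its log2 fold change was 0.76 ± 0.20, 1.69-fold (limma adjusted p = 0.0247), and it was called in 13 of the 15 leave-one-out settings. Atat1, Nqo1 and Stip1 were among these 12 as well. Stc1 (0.54), which encodes a secreted hormone, Tsks (0.53), Nwd1 (0.52), Slc37a2 (0.46), a sugar-phosphate transporter, D730005E14Rik (0.43), Napsa (0.39), an aspartic protease, Mxd4 (0.39), a MAX partner, and Clec4n (0.37), the Dectin-2 receptor for fungi, were the others. Slc37a2 and Mxd4 were called in 14 of the 15 settings, D730005E14Rik and Napsa in 9, Tsks in 7, Stc1 and Nwd1 in 6 and Clec4n in 5. Of the falls, Piwil4 was called in 14, 0610040B10Rik in 13, Atad5 in 12, Ndn and Klhl13 in 10 and Tspyl1 in 9. Some of these genes had low levels. The means of Defb1 (4.80) and Stc1 (4.76) in VEH nodes and of Ndn (4.93) in MEF79.2 nodes lay below the filter level of 5.24. On MEF79.2 arrays, the value 5.32 recurred for Defb1 and 5.18 for Stc1.

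Of 39 tested NRF2 targets, 1 was called higher and 1 lower (2 of 39, beside 4.75% of all genes), and none was called without array 30. The log2 fold change was positive in 18 and negative in 21, with a median of −0.01. At an unadjusted p under 0.05, 7 were higher and 7 lower, and with the pancreatic and adipocyte covariates 3 were called in each direction. The called member on the high side was Nqo1, the quinone reductase. Its lowest, median and highest log2 values were 7.68, 7.97 and 8.22 in MEF79.2 nodes, against 7.11, 7.62 and 7.77 in VEH nodes, and 5 of 7 MEF79.2 arrays lay above all VEH arrays. The log2 fold change of Nqo1 was 0.44 ± 0.13, 1.36-fold (limma adjusted p = 0.0405). It was called in 5 of the 15 leave-one-out settings, and its log2 fold change without array 30 was 0.41.

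The member called lower was Cat, catalase, which breaks down hydrogen peroxide. It ranged from 10.05 to 10.58 in MEF79.2 nodes and from 10.38 to 11.13 in VEH nodes, with a log2 fold change of −0.44 ± 0.12 (limma adjusted p = 0.0304). The 3 highest VEH arrays for Cat were arrays 2, 4 and 7, those with the highest adipocyte markers. With the pancreatic and adipocyte marker means as covariates, Cat had −0.42 (limma adjusted p = 0.00665). Other classical NRF2 targets were not called. Hmox1, heme oxygenase, had a log2 fold change of 0.25 ± 0.09 (adjusted p = 0.0751), and the subunits of glutamate-cysteine ligase, Gclc and Gclm, had 0.16 ± 0.10 and 0.16 ± 0.11. Txnrd1 had 0.10 ± 0.05, Srxn1 −0.01 ± 0.10, Gsr −0.06 ± 0.06 and Cbr3 0.02 ± 0.13. For Srxn1, the sulfiredoxin, the 95% interval ran from −0.21 to 0.19. Nfe2l2, which encodes NRF2 itself, had −0.03 ± 0.08. Slc7a11, the cystine transporter, lay between 3.35 and 3.76 in MEF79.2 nodes and 3.33 and 3.86 in VEH nodes, below the filter level of 5.24, and was not tested.

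Of 14 tested heat shock genes, 3 were higher, beside 1.49% of all genes, and none lower, with a median log2 fold change of 0.12. None of the 14 was called without array 30, and Ahsa1, Stip1 and Dnaja1 were called in 12, 10 and 7 of the 15 leave-one-out settings. These were the HSP90 cochaperones Stip1 and Ahsa1 and the HSP40 protein Dnaja1. Stip1 had log2 values of 9.16 to 9.83 in MEF79.2 nodes and 8.69 to 9.52 in VEH nodes, a log2 fold change of 0.38 ± 0.11 (limma adjusted p = 0.0305). The groups overlapped, VEH array 1 being the highest vehicle array for Stip1, Ahsa1 and Dnaja1. Ahsa1 had 0.30 ± 0.08 and Dnaja1 0.26 ± 0.07. Hspa1b, the inducible HSP70, had −0.06 ± 0.26, with VEH values spread from 6.41 to 8.47.

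Of 21 tested genes of the unfolded protein and ATF4 response, 3 were called higher and 1 lower, beside 1.49% and 3.26% of all genes, with a median of 0.09. Without array 30, no member of this or any other pathway list was called. Herpud1, which acts in the disposal of misfolded proteins of the endoplasmic reticulum, had 0.28 ± 0.07 (limma adjusted p = 0.0169), and a second probe set of it was also called, at 0.34. Ddit3, the transcription factor CHOP, had 0.25 ± 0.07, and Creld2, a chaperone of the same compartment that also stood in the plasma cell list, had 0.34 ± 0.10. Dnajb9, a cochaperone of the HSP70 protein BiP, went the other way, at −0.28 ± 0.08.

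**Figure D4:**
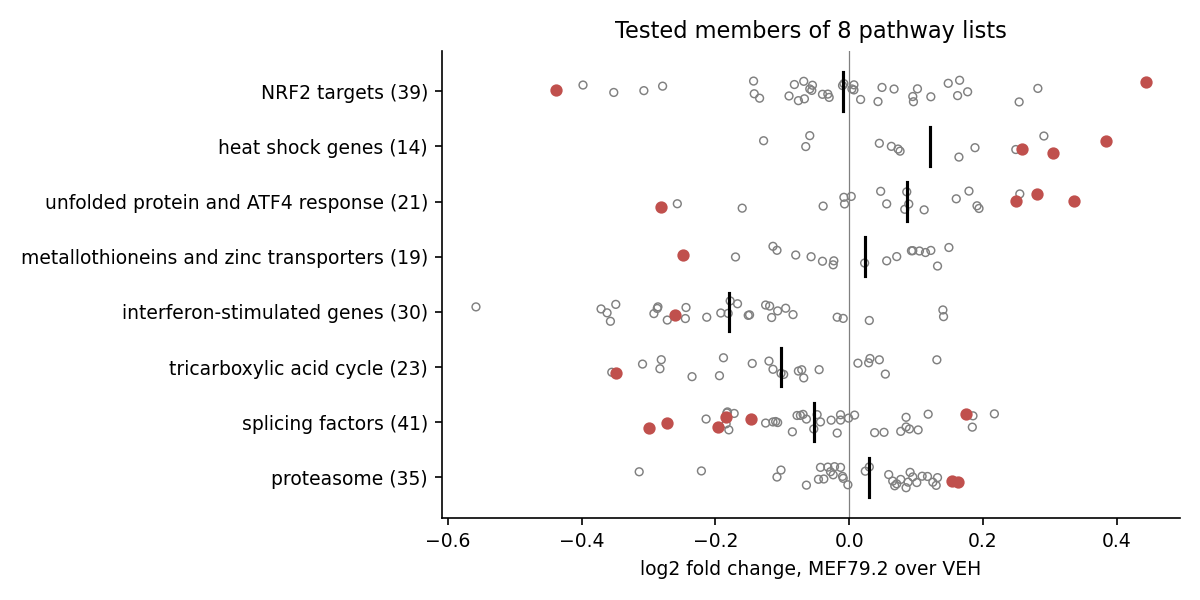
Log2 fold change of MEF79.2 over VEH (horizontal axis) for each tested member of 8 pathway lists (rows, with the number tested). Filled points have an adjusted p under 0.05, open points do not, and black bars are list medians. The interferon-stimulated genes lie mostly left of 0, with 1 call.

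Interferon-stimulated genes lay low as a list with 1 call, beside 4.75% of all genes. Of 30 tested members, 27 had a negative log2 fold change, the median was −0.18, and over all 10671 genes 5204 (48.8%) were negative with a median of 0.00. The 1 gene called was Trim30a, an interferon-induced ubiquitin ligase, with 11.18 to 11.58 in MEF79.2 nodes and 11.53 to 11.88 in VEH nodes. Its log2 fold change was −0.26 ± 0.07 (limma adjusted p = 0.0319), and a second probe set gave −0.31. Ifit1, named here after its value was seen, had the lowest value of the list, −0.56 ± 0.28 (adjusted p = 0.246). The list median was −0.18 without array 30 and −0.16 without arrays 30 and 3.

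Metal handling genes are of interest because the dose contained zinc, calcium and magnesium. Of 19 tested metallothioneins and zinc transporters, 1 was called, beside 4.75% of all genes. It was the zinc importer Slc39a1 (ZIP1), lower by −0.25 ± 0.07 (limma adjusted p = 0.03). Mt1, the metallothionein that zinc induces, had −0.02 ± 0.18 with an interval of −0.39 to 0.34. Slc30a1, the zinc exporter, had 0.06 ± 0.06, and Slc39a10 had −0.02 ± 0.07. Of 17 tested genes of calcium and magnesium transport, 1 was called, beside the same 4.75%. It was Trpm7, a channel kinase that carries magnesium, at 0.22 ± 0.05 (limma adjusted p = 0.0175), called in 14 of 15 leave-one-out settings. Its 2 other probe sets gave −0.11 and 0.12.

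Genes that handle fumarate gave 1 call of 9 tested, beside 4.75% of all genes. Slc16a1, the monocarboxylate transporter MCT1, was lower by −0.27 ± 0.07 (limma adjusted p = 0.0303). Fh1, fumarate hydratase, had 0.01 ± 0.07, and Ces1d, a carboxylesterase, had −0.02 ± 0.27. Hcar2 lay between 2.59 and 3.08 in MEF79.2 nodes and between 2.20 and 3.77 in VEH nodes, below the filter level. Of 23 tested genes of the tricarboxylic acid cycle, 1 was called, again beside 4.75%. Mdh1, the cytosolic malate dehydrogenase, was lower, at −0.35 ± 0.10 (limma adjusted p = 0.0304), while its second probe set gave 0.03. The list median was −0.10, with 17 of 23 values negative.

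Of 41 tested splicing factors, 1 was called higher and 5 lower, beside 1.49% and 3.26% of all genes, and none was called without array 30. The 3 with the smallest adjusted p were Rbm39 (−0.15), Luc7l2 (−0.30) and Hnrnpa2b1 (−0.20). All 6 further probe sets of Luc7l2 and all 3 of Hnrnpa2b1 were negative too, while of 8 further probe sets of Rbm39, 6 were negative and 2 positive. Averaged over its probe sets, Rbm39 had −0.11 (adjusted p = 0.57). Of 34 tested chromatin regulators, 2 were lower and none higher, beside 3.26% and 1.49% of all genes. These were Tet2, which oxidises methylated cytosine, at −0.28 ± 0.07, and Kdm6a, a histone demethylase, at −0.36 ± 0.10, and in both the other probe sets had the opposite sign. Of 35 tested proteasome genes, Psma5 (0.15) and the immunoproteasome subunit Psmb8 (0.16) were higher, beside 1.49% of all genes. Btg2, an antiproliferative immediate early gene, was 9.32 to 9.53 in MEF79.2 nodes and 8.96 to 9.31 in VEH nodes, without overlap, at 0.29 ± 0.07 (limma adjusted p = 0.0175). It was the only call of 21 immediate early genes, beside 4.75% of all genes.

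In the ribosome lists, Rpl37 was lower (−0.23) as the 1 call of 62 cytosolic ribosomal proteins. Beside each list of this paragraph, the share of all genes called was 4.75%. Of 51 mitochondrial ribosomal proteins, Mrps25 was higher (0.20) and Mrps23 lower (−0.30). The other probe sets of Rpl37 gave 0.01 and 0.12, those of Mrps23 gave 0.07 and 0.01, and those of Mrps25 gave −0.02 and 0.09. Pdk1, a kinase that inhibits pyruvate dehydrogenase, was lower (−0.21) as the 1 call of 22 glycolysis and hypoxia genes. No member was called of 46 tested oxidative phosphorylation genes, 40 cell cycle genes, 37 extracellular matrix genes, 19 cholesterol synthesis genes, 17 inflammatory genes, 16 lipogenesis genes or 12 genes of MHC class II presentation by limma's adjusted p. At an unadjusted p under 0.05, the counts in these lists were 10, 1, 1, 5, 1, 1 and 1, beside 2335 of all 10671 genes (21.9%).

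Cell type markers gave scattered calls, of which only Clca3a1 was called without array 30. Over all genes, 1.49% were called higher and 3.26% lower. Of 14 tested dendritic cell markers 1 was called, Fscn1, the actin bundler of mature migratory dendritic cells. It ranged from 11.07 through a median of 11.32 to 11.45 in MEF79.2 nodes and from 11.39 through 11.80 to 11.90 in VEH nodes, with a log2 fold change of −0.40 ± 0.09 (limma adjusted p = 0.0161). Its 2 further probe sets gave −0.04 and −0.02. Of 19 B cell markers, the transcription factor Ebf1 was lower (−0.33), and of 14 markers of NK and innate lymphoid cells, Id2 was lower (−0.35), with 0.29 and 0.00 on its 2 further probe sets. Of 25 macrophage markers, Clec4n was higher (0.37), and of 6 markers of smooth muscle and enteric neurons, the glial factor Sox10 was higher (0.15). Sox10 lay close to the filter level of 5.24, at 5.81 to 6.09 in MEF79.2 nodes and 5.65 to 5.97 in VEH nodes. The same value, 5.81, recurred on arrays of both groups. Of 23 T cell markers none was called by limma's adjusted p, and 4 had an unadjusted p under 0.05. List medians were 0.04 for B cells, 0.08 for T cells, 0.02 for dendritic cells and 0.01 for macrophages.

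The same MEF79.2 arrays were set directly against DMF100 arrays, which come from the same tissue and fit. The doses differ, 79.2 mg/kg of a mixture of monoester salts against 100 mg/kg of the diester, so compound and dose cannot be told apart. Of 10671 genes, 1437 (13.5%) were called, 329 (3.08%) higher and 1108 (10.4%) lower in MEF79.2 nodes, and 715 were called without MEF79.2 array 30 and 950 without DMF100 array 11. With a renewed quantile normalization 475 were higher and 866 lower, and with each array centred on its median 190 were higher and 1389 lower. The DMF100 arrays held no array with pancreatic signal, and the MEF79.2 group held 1.

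The NRF2 targets and heat shock genes that were called were lower in MEF79.2 nodes than in DMF100 nodes, as were 1108 of all 1437 calls. Of 39 tested NRF2 targets, 7 were lower and none higher, beside 10.4% and 3.08% of all genes. Their median log2 fold change was −0.14, beside −0.03 over all genes. Nqo1 had a median of 7.97 in MEF79.2 nodes and 8.68 in DMF100 nodes, where it ranged from 8.51 to 9.19, above every MEF79.2 array. The log2 fold change of Nqo1 was −0.78 ± 0.13 (limma adjusted p = 0.000524). Pgd, an enzyme of the pentose phosphate pathway, had −0.51 ± 0.17, and Akr1c13, an aldo-keto reductase, had −0.32 ± 0.07. Prdx1 (−0.15), Fth1 (−0.19), Cat (−0.43) and Txn1 (−0.12) completed the 7. Hmox1 had −0.07 ± 0.09 and Gclm 0.04 ± 0.11, and neither was called.

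Of 14 heat shock genes, 5 were lower and none higher in MEF79.2 nodes, beside 10.4% and 3.08% of all genes, with a median of −0.21. Hspa1b had a lowest, median and highest value of 6.82, 7.30 and 8.10 in MEF79.2 nodes, against 7.99, 8.88 and 9.39 in DMF100 nodes. Only the highest MEF79.2 array reached the lowest DMF100 array, and the log2 fold change was −1.45 ± 0.26 (limma adjusted p = 0.000746). Dnaja1 had −0.42 ± 0.07, Dnajb1 −0.47, Hspa8 −0.27 and Hspe1 −0.14. Stip1 and Ahsa1, higher in MEF79.2 than in VEH nodes, had −0.10 ± 0.11 and −0.02 ± 0.08 against DMF100 and were not called, with a 95% interval for Ahsa1 of −0.17 to 0.14.

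**Figure D5:**
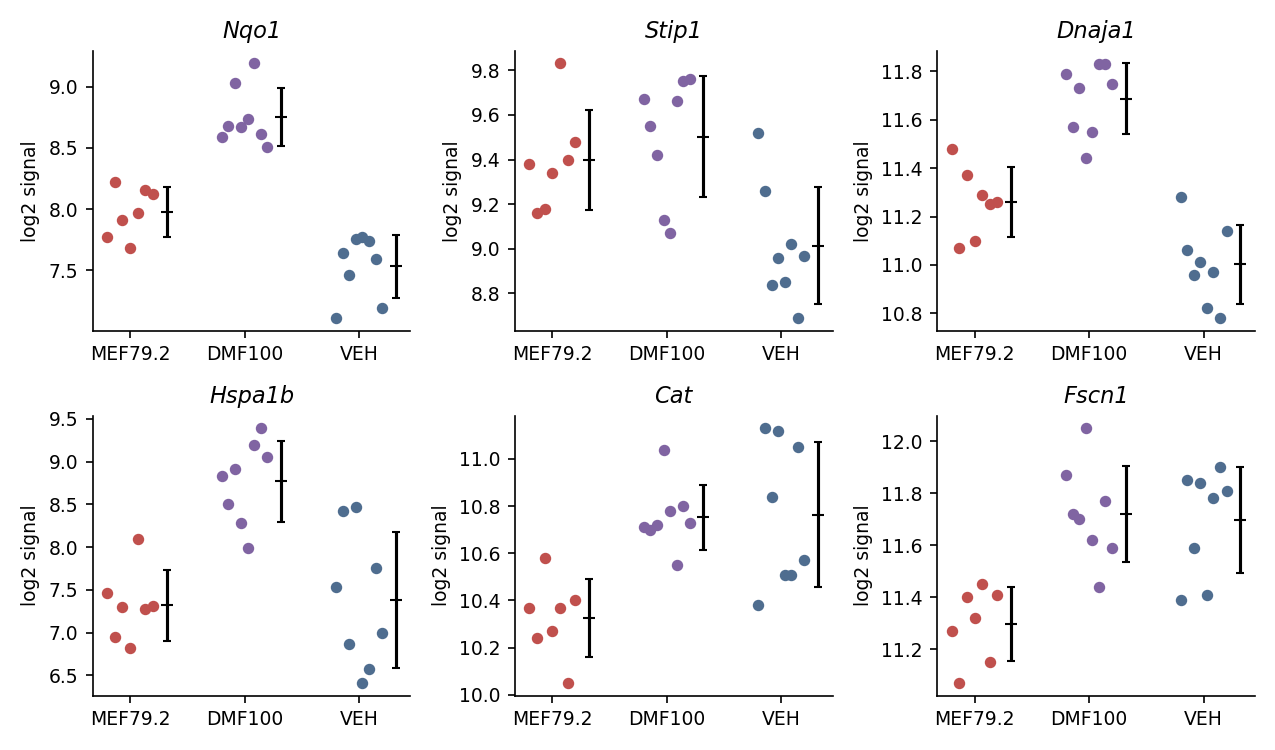
Log2 signal (vertical axes) of Nqo1, Stip1, Dnaja1, Hspa1b, Cat and Fscn1 in MEF79.2, DMF100 and VEH mesenteric nodes. Points are arrays, and bars give the mean and SD. Nqo1, Dnaja1 and Hspa1b are highest in DMF100 nodes, while Cat and Fscn1 are lowest in MEF79.2 nodes.

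By size, the largest falls against DMF100 were Angptl8, an inhibitor of lipoprotein lipase (−1.47 ± 0.35), Hspa1b, Ppp1r3b, a glycogen-targeting phosphatase subunit (−1.22 ± 0.43), Clca3a1 (−1.14 ± 0.18) and Tob1, an antiproliferative protein (−1.07 ± 0.22). Angptl8 was 4.48 to 6.10 in MEF79.2 nodes, 5.86 to 7.58 in DMF100 nodes and 4.93 to 6.67 in VEH nodes, so its MEF79.2 and VEH values covered much the same range. Clca3a1, in contrast, was lower in MEF79.2 nodes than in DMF100 or VEH nodes. In nodes given the same salts together with DMF at 100 mg/kg, Clca3a1 had −0.09 against VEH (limma adjusted p = 0.761). The largest rises were C430042M11Rik (0.68 ± 0.13), 4931413K12Rik (0.67 ± 0.22), Crlf3 (0.64 ± 0.21), Prpf38b, a splicing factor (0.64 ± 0.21), and Zfp142, a zinc finger protein (0.63 ± 0.17). None of these 5 was called against VEH. For 4931413K12Rik, Crlf3 and Prpf38b, each of DMF100 arrays 9 to 12 lay below each of DMF100 arrays 13 to 16. Prpf38b was 5.71 to 6.54 on the former and 6.78 to 7.63 on the latter, against 6.63 to 7.87 in MEF79.2 nodes. C430042M11Rik and Zfp142 did not split in this way. The hybridisation control mean was also lower on each of arrays 9 to 12 than on arrays 13 to 16. The reason for the split was not tested. Of the 18 genes above, 12 were also called against DMF100 in the same direction, beside 13.5% of all genes called in either direction. The 18 were chosen by their calls, and the 2 comparisons share their MEF79.2 arrays, so the 12 test nothing.

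The inguinal node, which does not drain the gut, allowed a test of whether the response to MEF salts differed between nodes. Over 10307 genes tested in both, none (0%) was called by limma for the difference between the mesenteric and the inguinal response, with 1461 genes at an unadjusted p under 0.05. In the inguinal node itself, 1 gene (0.0097%) was called, Sox9 (0.70), named here after its value was seen. Clca3a1 had a log2 fold change of −0.94 in the mesenteric node and −0.58 in the inguinal node, a difference of −0.36 (95% interval −0.95 to 0.23, adjusted p = 0.571). Nqo1 had 0.44 in the mesenteric and 0.30 in the inguinal node, Stip1 had 0.38 and 0.26 in the same order, and Dnaja1 0.26 and 0.25. Of the 18 genes, 15 had the same sign in the inguinal node, and none was called there. The exceptions in sign were Atat1 (−0.04), Gapvd1 (−0.004) and Wrap73 (−0.02). The share of all genes with the same sign in both nodes was not counted, so the 15 test nothing.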

How the data were processed

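RNA of mesenteric lymph nodes was measured on Affymetrix HT MG-430 PM arrays. The authors deposited log2 expression values, and RMA, GCRMA, R 2.11.1 and limma 3.4.5 are named in the submitters' processing notes, with no role given. Tissues have different lowest values and were treated as normalized apart. In the mesenteric node the lowest value was 2.14, with 18.7% to 20.1% of the 15 arrays' values at it, so low levels are compressed. Groups were taken from the sample titles. Names came from the platform annotation, with 28689 probe sets matched to RefSeq (GRCm38.p6, names only), while 551 probe sets with several symbols and 15692 without a name were left out. Each of 17097 genes was represented by 1 probe set, the one brightest on average across the whole table. A gene was tested if above the 50th percentile (5.24) in at least 5 arrays.

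limma 3.58.1 (R 4.3.3) fitted 1 mean per group over all 44 mesenteric node arrays, with Benjamini-Hochberg adjustment over all genes tested and a threshold of 0.05. The node comparison fitted both nodes together. Technical measures were compared by an exact permutation test (scipy 1.17.1). The fit was tested on simulated data. Errors after a fold change are SE. The number of arrays limits the precision, and p-values measure the spread between these arrays, which may be in part technical. Alternatives covered the filter, scaling, variance model, array weights, probe set choice, covariates, the groups alone and each array left out. Named genes were the 12 largest changes each way among calls, up to 3 calls per list by adjusted p, the 5 largest each way against DMF100 and for the node difference, and a panel of stress, metal and fumarate genes, of which Keap1 and Mt2 were not analysed here. The groups and lists were chosen with earlier results of these data known.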

Additional observations from a re-analysis of the deposited data

Results flagged for a closer look

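Chance alone sets 1 array apart in about 1 in 20 groups, and 178 groups of values were examined here (each tested named gene and 2 marker means, in MEF79.2 and in VEH), of which 10 held an array whose gap to the nearest other array was large for the group's range. The mean of the pancreatic markers was 9.40 on MEF79.2 array 30 and 9.68 on VEH array 3, far from all other arrays of either group. MEF79.2 array 30 was also the highest of its group for Stc1, at 5.95, and the lowest for Abi1 (6.61), Dse (8.83), Slc16a1 (10.42) and Nfe2l2 (8.86). Each of these 5 genes thus stood apart on MEF79.2 array 30. On VEH array 3, which also carried pancreatic signal, none of them did. Its values lay within the range of the other VEH arrays: Stc1 4.82, Abi1 7.48, Dse 9.83, Slc16a1 10.97 and Nfe2l2 9.15. With the pancreatic and adipocyte marker means as covariates, the log2 fold changes were −0.56 for Dse, −0.58 for Abi1, −0.26 for Slc16a1 and 0.52 for Stc1, all called. All 507 genes called in the main fit were also called in that setting. Without array 30, the log2 fold change of Dse was −0.50 and stayed called, that of Abi1 was −0.52, that of Slc16a1 −0.21 and that of Stc1 0.43, none of these 3 called. VEH array 1 was the highest of its group for Ahsa1, at 10.01. VEH array 2, which had the largest difference between 3′ and 5′ control probe sets of the 15 arrays (1.72), was the highest of its group for Nfe2l2 (9.67) and Slc25a24 (10.38).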

How the results depend on the processing

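The number of genes called in MEF79.2 against VEH, 507, moved most with the arrays. Leaving out each array in turn gave 18 to 834 calls (7 to 320 higher, 11 to 514 lower), and 715 to 1602 in MEF79.2 against DMF100. In the order called, higher and lower, there were 331, 102 and 229 with no filter, 190, 74 and 116 with probe sets averaged per gene, and 76, 27 and 49 with the hybridisation control covariate. There were 44, 10 and 34 with the 2 groups alone, 41 of them among the 507, 9, 1 and 8 without MEF79.2 array 30 and VEH array 3, and 28, 8 and 20 without all 8 arrays with pancreatic signal. There were 798, 267 and 531 with the adipocyte covariate and 875, 280 and 595 with both marker covariates. Testing each probe set gave 771 calls, 266 higher and 505 lower. Centring arrays gave 304, 72 higher and 232 lower. A renewed quantile normalization gave 243 higher and the 3′ to 5′ covariate 239. Against DMF100, calls were 2361 over all probe sets, 749 with the hybridisation covariate, 927 with mean probe sets, 684 without arrays 30 and 3 and 878 without all arrays with pancreatic signal. The node difference gave 3 calls with mean probe sets and 2 with the replicate block. The replicate numbers were not taken as pairing, since no label says what they mark: over 14 pairs of nodes with the same number, deviations correlated at −0.17 to 0.46 (median 0.21), 9 of them over 0.1, and 1 mesenteric array correlated best with its own number. Among named genes 1 called value changed sign, Araf, at 0.068 on the probe set highest in this node. The causes were not tested. The settings on arrays 30 and 3 together, arrays with pancreatic signal, marker covariates and arrays other than 30 and 3 were chosen after seeing the data. Genes near the lowest value of the table could not be compared.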
